A study of Mus musculus with 2 samples.

Results

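Genes that mark the endothelium of liver sinusoids and of larger vessels were compared between livers of Gbp5 knockout (KO, GBP5-/-) and wild-type (WT) mice during endotoxin injury. The 33 genes were taken as a list of symbols, matched to Ensembl identifiers in GENCODE M21 (mouse build GRCm38), out of 52636 Ensembl rows in each count table. All 33 are protein-coding, all were found, and all passed a filter at a mean of 1 CPM (counts per 1e6 reads assigned to Ensembl genes) over both libraries. They held 22343 reads in KO, or 0.142% of its total, and 41191 reads in WT, or 0.207%.

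The KO mice are labelled GBP5-/-, for an interferon-inducible GTPase gene, with no detail on the allele, and the WT mice are labelled wild type. Both groups were C57BL/6 mice 9 weeks old, and both had received D-galactosamine (800 µg per g body weight), which makes hepatocytes sensitive to endotoxin, with lipopolysaccharide (100 ng per g), the endotoxin itself, for 6 h. RNA of 4 livers was pooled per genotype and sequenced as 1 library, so animals cannot be told apart, no replicate test exists, and each ratio below compares 2 libraries. No untreated liver was analysed here.

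Sinusoidal endothelial cells line the liver capillaries, lack a continuous basement membrane, and clear waste molecules from blood through scavenger receptors and lectins. They also send signals to neighbouring cells: BMP2 and BMP6 induce hepcidin in hepatocytes, and Wnt ligands with R-spondin 3 from the endothelium around central veins maintain the pericentral hepatocyte programme. Endothelium of all vessels shares receptors for vascular endothelial growth factor (VEGF) and angiopoietins, the junction protein VE-cadherin, and transcription factors of the SoxF group. In whole-liver RNA, fewer endothelial cells and less RNA per endothelial cell cannot be told apart.

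The KO library held 15750875 reads over Ensembl genes and the WT library 19864848, so counting error weighs more on KO values. Gbp5 itself had 873 reads in KO and 3211 in WT, and was 2.92-fold lower in KO (95% counting interval 2.71 to 3.15), so reads at the gene remained in the library labelled KO. Of 15 lists of cell type markers, hepatocyte genes summed to 112407 CPM in KO and 73125 in WT, Kupffer cell and macrophage genes to 765 in KO and 1673 in WT, and stellate cell genes to 1755 in KO and 1963 in WT. Sinusoidal endothelial markers summed to 668 CPM in KO and 920 in WT, and all-vessel endothelial markers to 396 in KO and 530 in WT, with none of either list at 0 reads. Apart from Fcgr2b, the genes of both lists are among the 33, so these sums are not separate from the values below. Of the sinusoidal sum, Stab1 alone held 171 CPM in KO and 365 in WT, and the median log2 ratio of KO over WT in that list was -0.10. Gut and gallbladder epithelial genes summed to 328 CPM in KO and 11.6 in WT, of which Dmbt1 alone made up 274 and 1.01 CPM. Neutrophil genes summed to 300 CPM in KO and 383 in WT, and biliary genes to 249 in KO and 164 in WT. Liver and endothelial markers were thus present in both libraries, and markers of other cells differed between the libraries; the part of other cells in the values below was not tested.

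**Figure D1:**
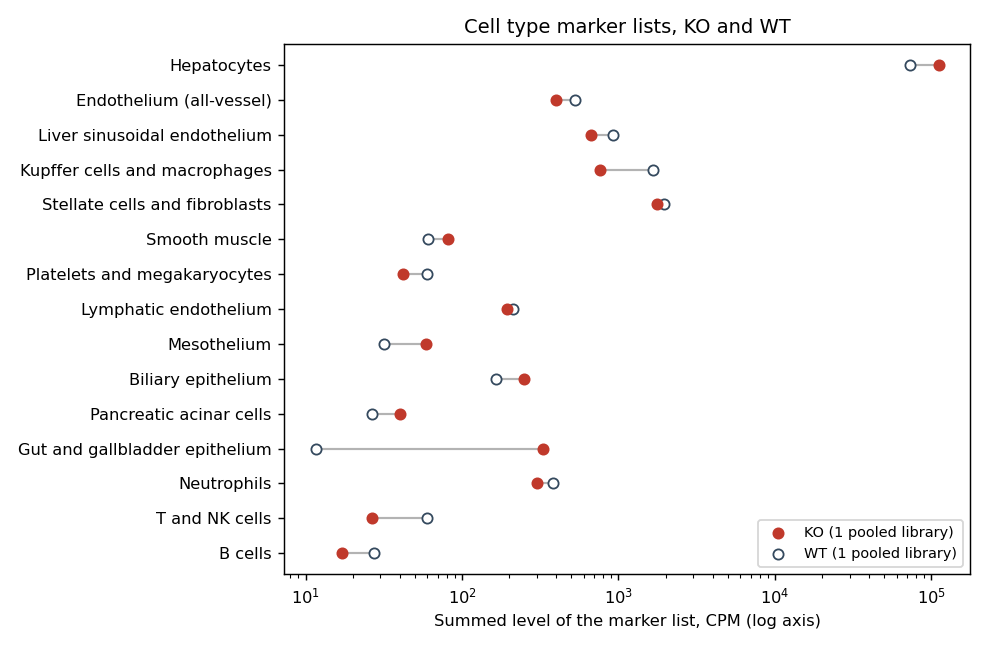
Summed level of each cell type marker list in CPM (log axis), with KO as filled and WT as open points, 1 pooled library each. Kupffer cell markers lie lower in KO (765 against 1673 CPM in WT) and hepatocyte markers higher. Both endothelial lists lie lower in KO, by a smaller factor than Kupffer cell markers. Apart from Fcgr2b, the genes of both endothelial lists are among the endothelial genes studied here.

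The ratio of KO to WT went with base composition across the whole table. Over 13436 genes at a mean of 1 CPM or more with reads in both libraries, Spearman's rho between the log2 CPM ratio and the GC content of a gene's exons was -0.46, a correlation across genes that share these 2 libraries. The endothelial genes are richer in GC, with a median of 52.1% against 49.3% over all genes tested, and within them the same rho was -0.52 (n = 33). Among the 17 endothelial genes at or above their own median GC content, 16 were lower in KO, with a median log2 ratio of -0.80. Among the 16 below it, 12 were lower, with a median of -0.07. Each log2 ratio is therefore given also after subtracting the median log2 ratio of genes of like GC content and exon length, called the adjusted log2 ratio. A biological difference shared by genes of one composition or length would be taken out with it.

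**Figure D2:**
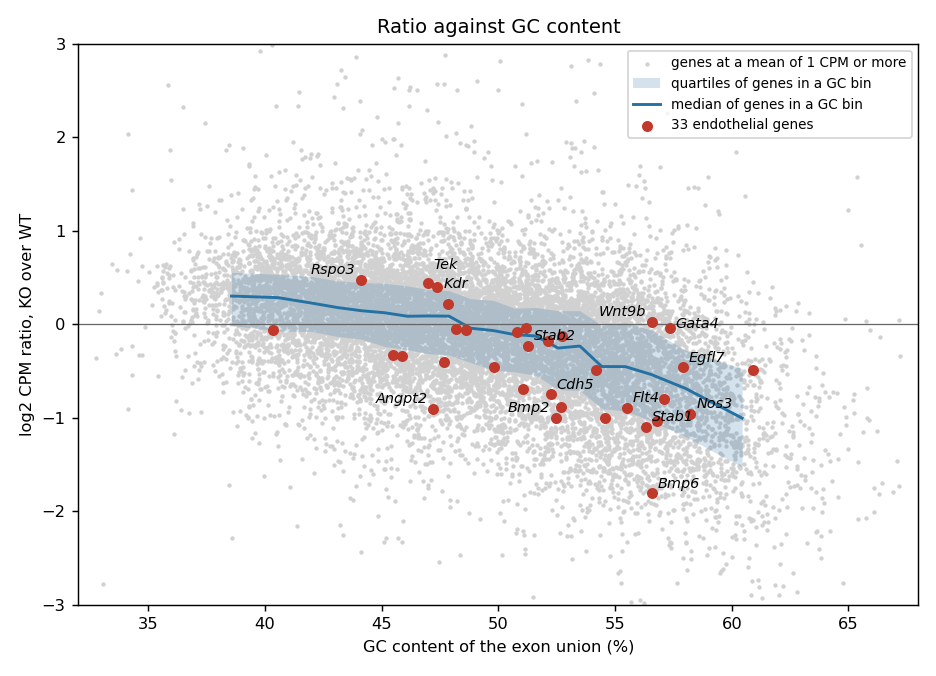
Log2 CPM ratio of KO over WT against GC content of the union of a gene's exons, with all genes in grey (70 of 13436 lie outside the axes), the median and quartiles of genes in 20 GC bins in blue, and the 33 endothelial genes in red. Bmp6, Angpt2, Bmp2, Stab1 and Flt4 lie below the blue line, Nos3 less far below it, and Kdr, Tek, Wnt9b and Gata4 above it.

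Of the 33 genes, 28 had a lower and 5 a higher CPM in KO, while of 13453 genes tested 54.5% were lower and 45.5% higher. After the adjustment 22 were lower and 11 higher, beside 49.8% and 50.1% of all genes, and totals that leave out the 50 most abundant genes also gave 22 and 11. Bmp6, Stab1, Tie1 and Robo4, 4 of 33, were at least 2-fold lower in KO, beside 11.8% of all genes, and none was 2-fold higher, beside 3.28%. By the adjusted ratio, 2 of 33, Bmp6 and Angpt2, were at least 2-fold lower, beside 5.75% of all genes. At 1.5-fold, 12 of 33 were lower (24.3% of all genes) and 5 by the adjusted ratio (16.0%), and 0 (10.9%) and 2 (11.6%) were higher. The median log2 ratio was -0.40, against -0.07 over all genes tested, and the adjusted median was -0.12 against 0.00. The shares at least 2-fold lower, 12.1% as CPM and 6.06% adjusted, were thus near those of all genes. By direction alone more of the 33 were lower, 28 beside 54.5% of all genes as CPM and 22 beside 49.8% adjusted, with members on both sides of 0.

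**Figure D3:**
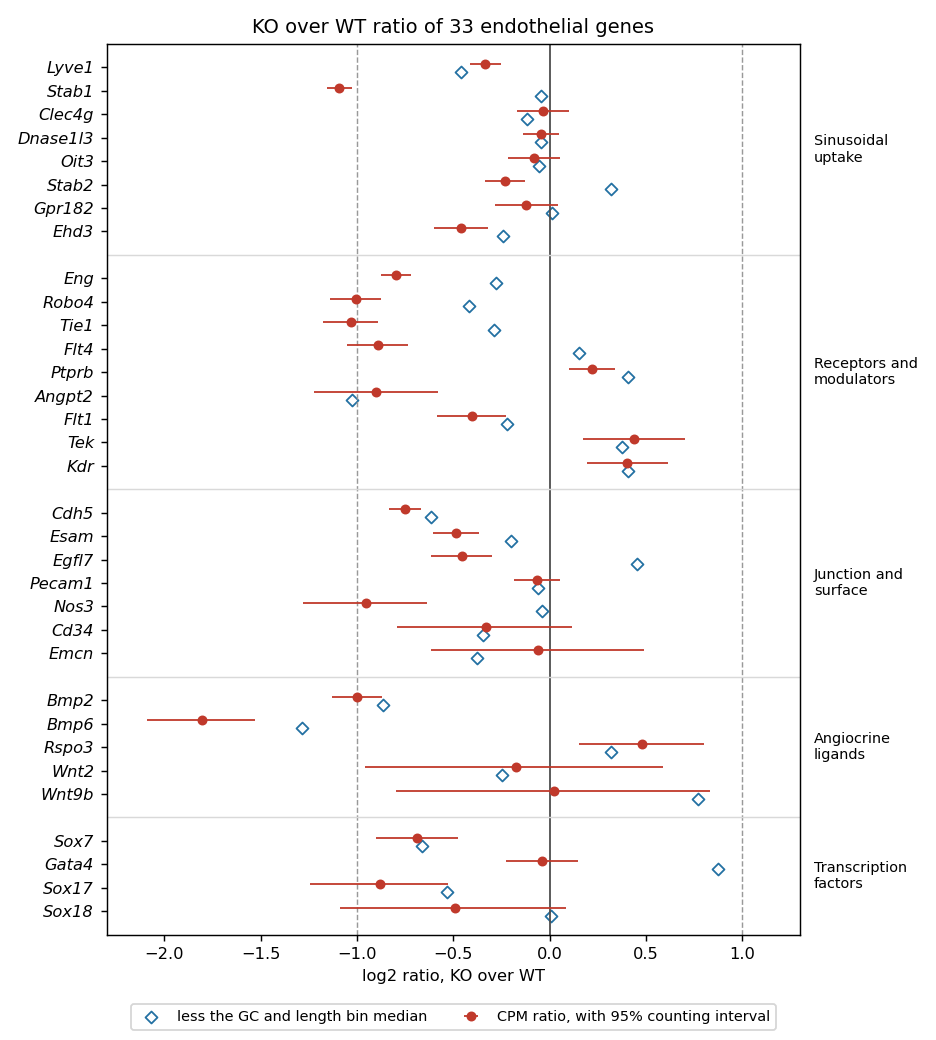
Log2 ratio of KO over WT for each endothelial gene, as a CPM ratio with its 95% counting interval (red) and after subtracting the median of genes of like GC content and length (blue diamonds). Dashed lines mark 2-fold. Bmp6 lies lowest by both measures, and Kdr, Tek, Ptprb, Rspo3 and, on few reads, Wnt9b lie above 0 by both.

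The scavenger, lectin and uptake genes that define the sinusoidal cell differed by less than 1.5-fold in 7 of 8 cases, the exception being Stab1. Most genes of the whole table also differed by less, as 24.3% were at least 1.5-fold lower in KO and 10.9% higher. Clec4g, an endothelial C-type lectin, had 807 reads in KO and 1043 in WT, or 20.8 and 21.3 FPKM (CPM per kilobase of exon). Oit3, a secreted protein gene of sinusoidal cells, had 787 reads in KO and 1051 in WT, and Dnase1l3, a nuclease that degrades chromatin in blood, had 1580 and 2056. The counting intervals of these 3 CPM ratios all included 1: 0.889 to 1.07 for Clec4g, 0.860 to 1.04 for Oit3 and 0.907 to 1.035 for Dnase1l3. Their small log2 ratios of -0.04, -0.08 and -0.05 change sign with totals that leave out the 50 most abundant genes. Gpr182, an atypical chemokine receptor, had 542 reads in KO and 743 in WT, a log2 ratio of -0.12 and an adjusted one of 0.01. The Gpr182 interval, 0.822 to 1.03, also included 1, so none of these 4 differences exceeded counting error.

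Stab1 and Stab2 encode the paired scavenger receptors stabilin-1 and stabilin-2. Stab1 (ENSMUSG00000042286, GRCm38 chromosome 14, 31139013 to 31168641, minus strand) had 2695 reads in KO and 7248 in WT, or 16.6 and 35.5 FPKM, and was 2.13-fold lower in KO (interval 2.04 to 2.23). Its exons are 56.3% GC and 10288 bases long, and 106 genes in the same GC and length class had a median log2 ratio of -1.05, which left an adjusted log2 ratio of -0.05; the correction for GC content alone left -0.55. Stab2 had 1220 reads in KO and 1807 in WT, a log2 ratio of -0.23 and an adjusted one of 0.32. With GC content alone Stab2 was at -0.10, so its direction differs between the corrections. Stab1 was the lower of the pair on both scales, but after the adjustment it lay near its class median. Stabilin-1 is also made by macrophages, whose list was lower in KO in 12 of 12 genes with no gene at 0 reads, and the part of those cells in the Stab1 value was not tested.

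Lyve1, the hyaluronan receptor, was the most abundant gene of the group at 42.3 FPKM in KO and 53.2 in WT. It was 1.26-fold lower in KO (1.19 to 1.33), with an adjusted log2 ratio of -0.46. Ehd3, an endocytic recycling protein enriched in sinusoidal cells, had 655 reads in KO and 1136 in WT, a log2 ratio of -0.46 and an adjusted one of -0.24. Over the 8 uptake genes, the median log2 ratio was -0.18 and the adjusted median -0.05. As CPM all 8 were lower in KO and 6 of 8 after the adjustment, beside 54.5% and 49.8% of all genes. Clec4g, Dnase1l3 and Oit3 were above 0 with totals without the 50 most abundant genes, and Clec4g, Oit3 and Gpr182 with GC content alone. Lyve1 and Ehd3 were the lowest of the 8 on the adjusted scale.

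**Figure D4:**
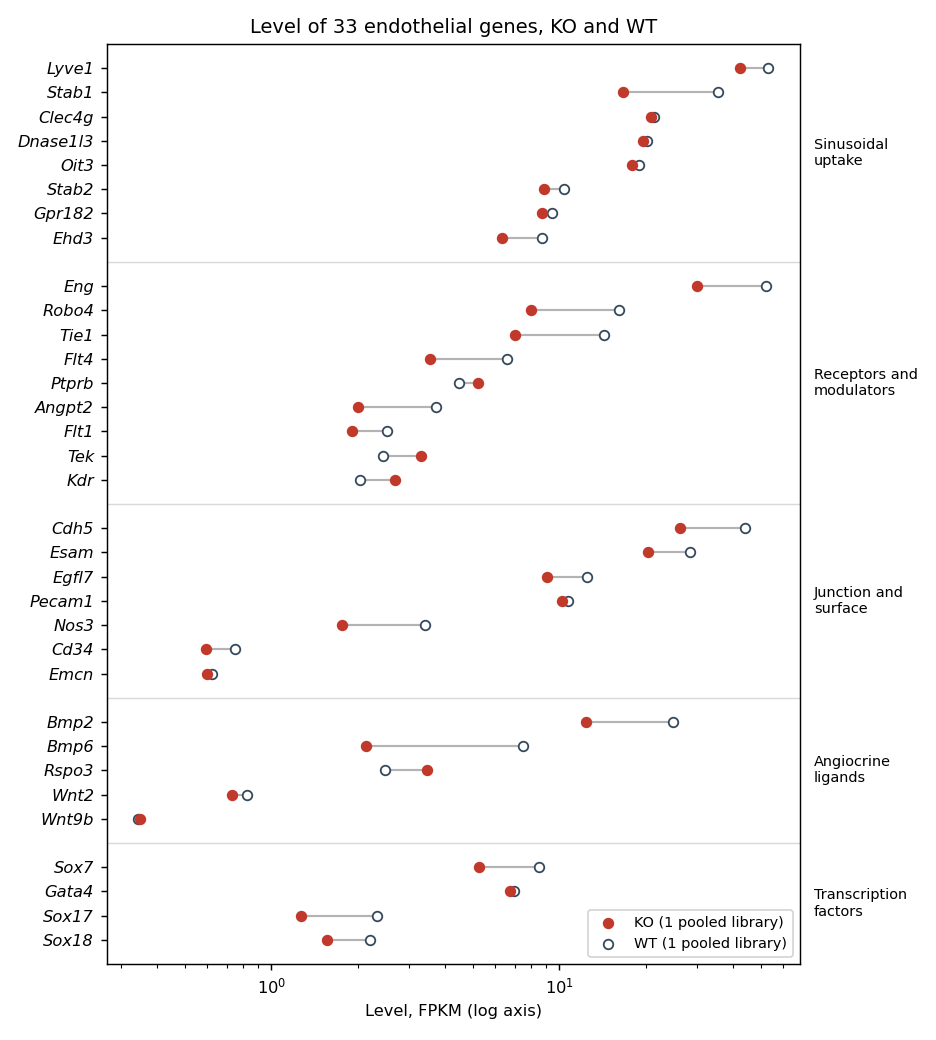
Level of each endothelial gene in FPKM (log axis), KO as filled and WT as open points, sorted within each role by the WT level. Lyve1 and Eng are the most abundant, and the Wnt ligand genes, Cd34 and Emcn lie under 1 FPKM in both libraries.

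The growth factor receptors lay on both sides of 0. Kdr encodes VEGF receptor 2, the main signalling receptor for VEGF-A, and Tek encodes Tie2, the angiopoietin receptor. Promoter stretches are shown for these receptors and for a pair that was lower in KO, the VEGF receptor gene Flt1 and the TGF-beta co-receptor gene Eng. Each line gives the 240 bases that end 10 bases before the RefSeq start (RefSeq, GRCm38.p6), in gene direction, with capitals for GGAA (the core bound by ETS factors), CACCC (a box bound by KLF factors) and ACAAT (a core bound by SOX factors) on either strand.
Kdr: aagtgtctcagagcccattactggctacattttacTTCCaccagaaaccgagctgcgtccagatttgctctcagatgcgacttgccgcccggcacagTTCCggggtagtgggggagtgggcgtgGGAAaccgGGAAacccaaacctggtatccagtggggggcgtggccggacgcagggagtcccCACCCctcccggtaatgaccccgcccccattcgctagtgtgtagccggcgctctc
Tek: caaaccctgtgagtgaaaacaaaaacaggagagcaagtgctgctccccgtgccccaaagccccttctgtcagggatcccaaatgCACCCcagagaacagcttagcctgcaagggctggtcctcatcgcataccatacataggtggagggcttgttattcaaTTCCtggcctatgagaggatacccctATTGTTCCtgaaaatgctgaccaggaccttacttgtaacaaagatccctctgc
Flt1: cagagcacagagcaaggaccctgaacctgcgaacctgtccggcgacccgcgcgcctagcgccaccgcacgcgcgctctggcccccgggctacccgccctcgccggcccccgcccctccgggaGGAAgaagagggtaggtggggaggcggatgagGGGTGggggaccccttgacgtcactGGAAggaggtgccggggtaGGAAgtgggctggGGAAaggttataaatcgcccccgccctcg
Eng: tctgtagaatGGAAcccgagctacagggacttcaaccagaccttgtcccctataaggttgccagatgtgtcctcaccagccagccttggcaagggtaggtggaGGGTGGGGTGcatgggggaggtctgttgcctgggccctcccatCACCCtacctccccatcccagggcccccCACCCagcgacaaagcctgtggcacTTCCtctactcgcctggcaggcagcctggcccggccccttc
The Kdr stretch is chr5:75978466-75978705 on the minus strand, that of Tek chr4:94739039-94739278 on the plus strand, that of Flt1 chr5:147726022-147726261 on the minus strand, and that of Eng chr2:32646345-32646584 on the plus strand. GGAA occurs 4 times in Kdr, 2 times in Tek, 4 times in Flt1 and 2 times in Eng, CACCC once in each of the first 3 and 4 times in Eng, and ACAAT once, in Tek, where it overlaps a GGAA match. Over the first listed promoter of 27025 genes, 92.6% hold GGAA, 49.95% CACCC and 27.8% ACAAT, and among the 17 endothelial genes with an entry the numbers are 15, 8 and 5. GGAA and CACCC were present in both the pair that was higher in KO and the pair that was lower. GC content was 62.1% in the Kdr stretch, 50.8% in Tek, 70.8% in Flt1 and 63.3% in Eng.

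Kdr had 382 reads in KO and 364 in WT, or 2.69 and 2.03 FPKM, a ratio of 1.32 (interval 1.14 to 1.53). Tek had 245 reads in KO and 228 in WT, or 3.30 and 2.44 FPKM, a ratio of 1.36 (1.13 to 1.63). Ptprb, which encodes the endothelial phosphatase VE-PTP that acts on Tie2 and VE-cadherin, had 1096 reads in KO and 1185 in WT, a ratio of 1.17 (1.07 to 1.27). All 3 were higher in KO on every scaling tried, with adjusted log2 ratios of 0.41 for Kdr, 0.38 for Tek and 0.41 for Ptprb.

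Angpt2, the ligand that opposes Tie2 activation and is released by activated endothelium, was lower in KO. It had 116 reads in KO and 273 in WT, or 1.996 and 3.72 FPKM, and was 1.87-fold lower (interval 1.496 to 2.34). At 47.2% its GC content is below the median of the table, and the adjusted log2 ratio of -1.03 was thus larger in size than the CPM one of -0.90; 3.69% of the 244 genes in its GC and length class had a lower ratio. With a correction for GC content alone it was at -0.99, short of 2-fold. Tek and its ligand gene Angpt2 thus lay on opposite sides, while Angpt1, the activating Tie2 ligand, had 50 reads in KO and 33 in WT, a ratio of 1.91 (1.21 to 3.06).

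Tie1, the orphan partner of Tie2, had 543 reads in KO and 1401 in WT and was 2.05-fold lower (1.85 to 2.26). Robo4, a guidance receptor that stabilises vessels, had 668 reads in KO and 1693 in WT and was 2.01-fold lower (1.84 to 2.20). Flt4, the receptor for VEGF-C, had 462 reads in KO and 1081 in WT, a log2 ratio of -0.89. These 3 genes are GC-rich, at 54.6% to 56.8%, and their adjusted log2 ratios were -0.29 for Tie1, -0.42 for Robo4 and 0.15 for Flt4. Flt4 was at -0.42 with GC content alone, so its direction differs between the corrections. Eng, or endoglin, had 1921 reads in KO and 4210 in WT, or 30.1 and 52.4 FPKM, a log2 ratio of -0.80 and an adjusted one of -0.28. Flt1 had 405 reads in KO and 676 in WT, a log2 ratio of -0.40 and an adjusted one of -0.22.

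Of the 7 junction and surface genes, all were lower in KO as CPM and 6 adjusted, beside 54.5% and 49.8% of all genes. Pecam1 and Emcn were above 0 when totals leave out the 50 most abundant genes. Cdh5, which encodes VE-cadherin (ENSMUSG00000031871, GRCm38 chromosome 8, 104101625 to 104144511), had 1737 reads in KO and 3684 in WT, or 26.2 and 44.1 FPKM, and was 1.68-fold lower in KO (1.59 to 1.78), with an adjusted log2 ratio of -0.62. Pecam1, the pan-endothelial adhesion molecule CD31, had 1006 reads in KO and 1326 in WT, a CPM ratio of 0.957 with an interval of 0.881 to 1.04. The counting intervals of the 2 genes did not overlap. Pecam1 is also carried by platelets and leukocytes, and the part of those cells in its value was not tested. Esam, a tight junction adhesion molecule also found on platelets, had 919 reads in KO and 1622 in WT, a log2 ratio of -0.48 and an adjusted one of -0.20, while platelet markers summed to 41.8 CPM in KO and 59.9 in WT, and their part in that value was not tested.

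Nos3, endothelial nitric oxide synthase, had 115 reads in KO and 281 in WT and was 1.94-fold lower (1.55 to 2.43), but at 58.2% GC its adjusted log2 ratio was -0.04 (-0.28 with GC content alone). Egfl7, a secreted endothelial factor, was at -0.46 and at 0.46 after the adjustment, a change of direction. Emcn, an endothelial sialomucin, rested on 51 reads in KO and 67 in WT, and Cd34 on 68 and 108, so that intervals of both ratios included 1 (0.654 to 1.40 and 0.577 to 1.09). Nos3 shares 1040 bases of exon with the antisense gene Gm15587, which had 1 read in KO and 2 in WT. Egfl7 shares 264 bases with Gm20532, a gene on the same strand with 0 reads in both libraries, and 64 with Agpat2. Sox17 shares 804 bases with Gm37587 and Rspo3 404 with Gm48159, each on the opposite strand. The strand setting of the counting is not given, and the effect of the shared bases on these counts was not tested.

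The angiocrine ligands held the lowest value of all. Bmp6 (ENSMUSG00000039004, GRCm38 chromosome 13, 38345107 to 38500302, plus strand), the main endothelial inducer of hepcidin, had 131 reads in KO and 578 in WT, or 2.13 and 7.46 FPKM. The KO level was 3.50-fold lower, with an interval of 2.89 to 4.26 and a log2 ratio of -1.81, and its adjusted log2 ratio was -1.29. Of the 365 genes in its GC and length class, 1.64% had a lower ratio. Its exons share 224 bases with the antisense gene Txndc5, which had 1681 reads in KO and 2431 in WT. How reads in the shared bases were assigned is not known, and their effect on the Bmp6 value was not tested.

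Bmp2, the second endothelial inducer of hepcidin, had 694 reads in KO and 1750 in WT, or 12.4 and 24.8 FPKM, and was 1.999-fold lower (1.83 to 2.19), just short of the 2-fold rule that Robo4 just met. Its adjusted log2 ratio was -0.87 (-0.75 with GC content alone), and 6.83% of the 293 genes in its class had a lower ratio. Both BMP ligand genes of the endothelium were therefore lower in KO on either scale. Hamp, the hepcidin gene of hepatocytes, was higher in KO, with 11866 reads in KO and 7020 in WT and a ratio of 2.13 (2.07 to 2.20). Hepatocyte markers were higher with it, in 9 of 10 genes, and summed to 112407 CPM in KO and 73125 in WT; their part in the Hamp value was not tested.

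Rspo3, the R-spondin that enhances Wnt signals around central veins, had 169 reads in KO and 153 in WT, or 3.47 and 2.49 FPKM, a ratio of 1.39 (1.11 to 1.745), with an adjusted log2 ratio of 0.32. Wnt2 had 26 reads in KO and 37 in WT, and Wnt9b, the Wnt ligand of central vein endothelium, had 25 and 31. Their ratios of 0.886 (0.515 to 1.504) and 1.02 (0.576 to 1.78) show no difference detectable at this depth, and the adjusted value of 0.77 for Wnt9b rests on these few reads. Rspo3 is also made by stellate cells, whose summed markers were 1755 CPM in KO and 1963 in WT, and their part was not tested.

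Of the SoxF factors, shared by endothelium of all vessels, Sox7 had 274 reads in KO and 557 in WT and was 1.61-fold lower (1.39 to 1.87). Sox17 had 95 reads in KO and 221 in WT and was 1.84-fold lower (1.44 to 2.37), and Sox18 had 40 and 71, a ratio of 0.711 with an interval of 0.470 to 1.06. After the adjustment Sox7 was at -0.66, Sox17 at -0.53 and Sox18, the most GC-rich of the 33 genes at 60.9%, at 0.01 (0.51 with GC content alone). Gata4, which directs sinusoidal identity, had 415 reads in KO and 538 in WT, or 6.75 and 6.94 FPKM, with a ratio of 0.973 (0.854 to 1.11) and an adjusted log2 ratio of 0.87, the highest of the 33 (0.64 with GC content alone). Gata4 is also expressed in foregut epithelium. The gut and gallbladder marker list summed to 328 CPM in KO, most of it from Dmbt1, and 11.6 in WT, with Cdx2 at 0 reads in both. The part of these or of other cells in the Gata4 value was not tested.

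A separate list of 22 genes, named for other transcription factors of endothelium, also holds Heg1, which encodes a membrane protein. Of the list, 21 members passed the filter. Of these, 6 were at least 2-fold lower, or 28.6%, beside 11.8% of all genes, and the same 6 were so by the adjusted ratio, beside 5.75%. The median log2 ratio was -0.56 and the adjusted one -0.53. Klf2, a factor induced by laminar flow that sustains Nos3 and thrombomodulin expression, had 933 reads in KO and 5097 in WT and was 4.33-fold lower (4.04 to 4.65). Lyl1, a haematopoietic and endothelial helix-loop-helix factor, had 17 reads in KO and 135 in WT and was 6.30-fold lower (3.79 to 11.1). The rest, named after their values were seen, were Lmo2, Foxf1, Erg and Maf, at log2 ratios of -1.74, -1.36, -1.28 and -1.27. At the upper end, Elk3 had a ratio of 1.51 (1.15 to 1.99) and Meis1 1.37 (0.897 to 2.11). Klf2, Lyl1, Lmo2 and Maf are also expressed in leukocytes, and T and NK cell markers summed to 26.6 CPM in KO and 59.9 in WT with Kupffer cell markers lower too, and the part of those cells was not tested.

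Among VEGF and angiopoietin ligands and co-receptors, 10 of 14 passed the filter, of which 2 were at least 2-fold lower and none higher, beside 11.8% and 3.28% of all genes. The adjusted ratio also gave 2 and 0, beside 5.75% and 3.81%. Vegfa, made in the liver mainly by hepatocytes, had 1482 reads in KO and 5069 in WT and was 2.71-fold lower (2.56 to 2.88), with an adjusted log2 ratio of -1.31. Vegfd had 15 reads in KO and 39 in WT, and the co-receptor gene Nrp1 had 1031 and 901, a ratio of 1.44 (1.32 to 1.58). Of the genes for receptors of Vegfa, Kdr and Nrp1 were thus higher in KO and Flt1 was lower, as Vegfa was.

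Of 25 genes of the BMP and ALK1 axis outside the endothelial list, 3 were at least 2-fold lower as CPM, near the 11.8% of all genes, and none by the adjusted ratio, beside 5.75%. Hamp alone was 2-fold higher by both, 1 of 25 beside 3.28% and 3.81% of all genes. Acvrl1, the endothelial receptor ALK1, was 2.65-fold lower (2.18 to 3.24), at -0.89 after the adjustment, and Acvr2b was at -1.31 and -0.79. Bmpr1a, the hepatocyte receptor, had a ratio of 1.58 (1.29 to 1.93). The third gene past 2-fold was Smad6, an inhibitory target of BMP signals named after its value was seen, at -1.28 and at -0.37 after the adjustment. The median of the list was 0.18, on the other side from the ligands Bmp2 and Bmp6.

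In the Wnt list 23 of 27 genes passed the filter, 2 were at least 2-fold lower as CPM, or 8.70% beside 11.8% of all genes, and 3 by the adjusted ratio, or 13.0% beside 5.75%. None was 2-fold higher by either, beside 3.28% and 3.81% of all genes. The frizzled receptor genes Fzd7 and Fzd8 were 3.82-fold (3.11 to 4.72) and 3.52-fold (2.63 to 4.78) lower, with adjusted log2 ratios of -1.35 and -1.46, and the third was Oat, a pericentral aminotransferase gene named after its value was seen, at -1.09. Wls, needed for Wnt secretion, had a ratio of 1.92 (1.53 to 2.40), and Lgr4, a receptor for R-spondins, 1.42 (1.16 to 1.74). Fzd6 had 0 reads in both libraries. The pericentral genes Glul and Cyp2e1, also named afterwards, had log2 ratios of 0.18 and 0.04, and they do not stand for the other pericentral genes of the list. Over the 23 tested genes the median log2 ratio was -0.14. Of these, 7 were at least 1.5-fold lower and 1 higher, beside 24.3% and 10.9% of all genes.

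The vascular Notch list had 12 tested genes of 14, with a median GC content of 55.2%. Of these, 4 were at least 2-fold lower as CPM, or 33.3%, and none higher, beside 11.8% and 3.28% of all genes. By the adjusted ratio 1 was 2-fold lower, or 8.33%, and 1, Heyl, higher, beside 5.75% and 3.81%. The median was -0.53 before and 0.07 after the adjustment. Jag2, a Notch ligand, had 5 reads in KO and 42 in WT, at -2.74 and at -1.37 after the adjustment, and Notch4, an endothelial receptor, was at -1.81 and -0.45. Hes1, a Notch target, had a ratio of 1.39 (1.22 to 1.59) and Heyl 1.35, with an interval that included 1.

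Of 52 tested genes in a wider list of endothelial markers, 9 were at least 2-fold lower and 2 higher as CPM, beside 11.8% and 3.28% of all genes. The 9 lower genes make up 17.3% of the list. By the adjusted ratio 3 were lower, or 5.77%, and 1 higher, beside 5.75% and 3.81% of all genes. Rasip1, a regulator of vessel lumen formation, was 4.67-fold lower (4.12 to 5.31) and at -1.31 after the adjustment. Shank3 was 4.73-fold lower (4.24 to 5.28) and at -0.88 after the adjustment, with 62.3% GC. Palmd, a palmdelphin gene, had a ratio of 2.80 (2.38 to 3.31), and Nostrin, which encodes a trafficking partner of endothelial nitric oxide synthase, 2.09 (1.68 to 2.61). The other 2 lower by the adjusted ratio were Procr and Igfbp7, named after their values were seen, at -1.76 and -1.03.

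**Figure D5:**
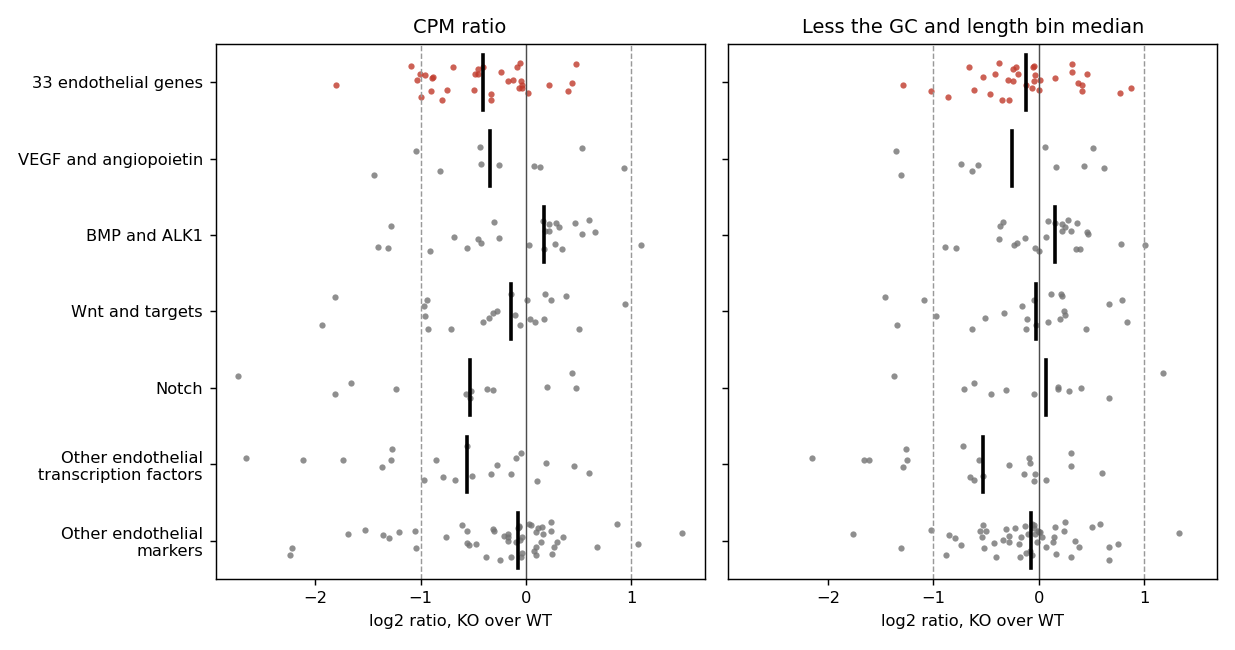
Log2 ratio of KO over WT for the 33 endothelial genes (red) and for tested genes of 6 related lists (grey), in 2 panels, as CPM ratio on the left and after subtracting the median of genes of like GC content and length on the right. Black bars are list medians and dashed lines 2-fold; the Notch median goes from -0.53 on the left to 0.07 on the right, whereas that of other endothelial transcription factors stays at -0.56 and -0.53.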

How the data were processed

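The 33 genes, their division into roles and the related lists were chosen with earlier results of these data known, and no list supports another independently. The deposited files carry FPKM in their names, but every value is a whole number (2707 genes have exactly 1 read in WT), so they were taken as raw counts. TopHat2, HTSeq (0.6.1) and build GRCm38 are named per the submitters' processing notes; neither the annotation release nor the strand setting is given. Rows with no Ensembl gene, 209 of 52845, held 0.496% of reads in KO and 0.652% in WT and were left out. CPM and FPKM were computed from these counts, with exon union length and GC content from GENCODE M21, which held 52489 of 52636 genes.

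With 1 library per genotype no test was made. Intervals are exact 95% Clopper-Pearson intervals of the ratio, conditional on the summed reads; they cover counting error only, and reads are not independent molecules. A count of 0 allows 3 reads, or 0.190 CPM in KO and 0.151 in WT. The adjusted log2 ratio subtracts the median of genes with 100 reads or more in the same of 10 GC by 4 length bins. Named outside the 33 were Gbp5, the 2 highest and 2 lowest tested genes of each related list, and a few marked as named afterwards. Older symbols were matched through RefSeq names for 2 genes. Alternatives were 4 scalings, 2 GC corrections, 2 filters, 2 added constants and protein-coding genes only. The steps were tested on simulated counts. Python 3.11.15, numpy 2.4.6, pandas 2.3.3, scipy 1.17.1 and, for TMM factors alone, edgeR 4.0.16 in R 4.3.3 were used.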

Additional observations from a re-analysis of the deposited data

How the results depend on the processing

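No paired analysis was possible because each genotype is 1 pooled library. Of the 33 genes, 4 were at least 2-fold lower in KO; this count was 3 with TMM, median ratio or non-mitochondrial totals, 2 on log2 of FPKM plus 1, 1 with totals without the 50 most abundant genes, 2 with the GC and length adjustment and 1 with GC content alone. No alternative brought any of the 33 to 2-fold higher. The count at 1.5-fold lower went from 12 to 5 with either GC correction, and that at 1.5-fold higher from 0 to 2 with GC and length and 1 with GC alone. The median of the 33 log2 ratios, -0.40, was -0.12 with GC and length, and lay between -0.46 and -0.25 under the other 10 alternatives. Bmp6 had the lowest ratio of the 33 under all 11 alternatives. Totals without the 50 most abundant genes shifted the median of all genes by 0.10 and put Clec4g, Dnase1l3, Emcn, Gata4, Oit3 and Pecam1 above 0; the GC and length adjustment did so for Egfl7, Flt4, Gata4, Gpr182, Sox18 and Stab2. Over all genes, 1589 were 2-fold lower and 441 higher in KO, 78.3% lower; GC and length gave 773 and 512, 60.2% lower, GC alone 853 and 581, no filter 2718 and 2086, a filter at 5 CPM 1102 and 131, and FPKM plus 1 696 and 105. Depth limits Wnt2, Wnt9b, Sox18, Emcn and Cd34, whose counting intervals include a ratio of 1.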
